A study of Mus musculus with 6 samples.

Results

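The 35 genes described here encode the contractile apparatus of smooth muscle and the cytoskeleton, membrane attachments, ion channels and transcription factors that go with it. They were chosen by gene symbol, with earlier results of these data known. All 35 symbols were found once each among the 18988 rows of the deposited table. RNA was measured by sequencing in tissue of the corpus, the main body of the stomach, from 6 mice of C57BL/6 strain background. There were 3 PGC;Ras;APC FF mice (replicates 4 to 6) and 3 Ras;APC FF mice, which the labels name as controls (replicates 1 to 3), with 1 mouse per library. Both groups thus carry Ras and APC FF, and they differ by PGC. The labels do not spell out PGC, Ras or FF, and give no age, sex, driver, induction or time point. The comparison asks how these genes differ in the corpus when PGC is added to Ras;APC FF.

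The wall of the stomach holds layers of visceral smooth muscle under the glands, and blood vessels carry vascular smooth muscle. Smooth muscle contracts when calcium entering through L-type channels activates myosin light chain kinase, which phosphorylates the regulatory light chain of myosin so that myosin pulls on actin. A phosphatase reverses this step, and potassium channels limit calcium entry. Many of the genes are switched on by serum response factor (SRF), which binds a short DNA element called the CArG box together with cofactors such as myocardin.

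Most of the genes had lower levels in PGC;Ras;APC FF corpus than in Ras;APC FF corpus. The mean FPKM (fragments scaled to gene length and to the size of the library, so that levels can be set side by side between genes) was below 50% of the control mean for 19 of 35 genes. That count was not taken over all genes. A log2 change under -1 was found in 13 of the 30 tested genes, against 0.548% of all tested genes. The median over the 35 was 48.9%, and the range ran from 15.8% (Sgca) to 108% (Pdlim7). Sgca was near the floor, at 0.05 to 0.17 FPKM against 0.58 to 0.75 in controls. It was among the 5 genes below the filter described next. The markers that define smooth muscle, Myh11, Actg2, Des, Cnn1 and Lmod1, were all read in all 6 libraries, between 6.09 and 1053 FPKM. In bulk tissue, fewer smooth muscle cells, less RNA per cell and a larger share of RNA from other cells cannot be told apart.

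No single gene passed the test over all genes. Values were tested as log2(FPKM + 1) with limma over 11857 genes that reached 1 FPKM in at least 3 libraries, with Benjamini-Hochberg adjustment and a threshold of 0.05. Of the 35 genes 30 were tested, and 0 were called lower and 0 higher. Over all tested genes 0.0422% were called lower and 0.11% higher. At an unadjusted limma p under 0.05, 24 of the 30 were lower and 0 higher, where 3.63% of all tested genes were lower and 31.8% higher. Of the 30, 29 had a negative log2 change, against 19.4% of all tested genes. In 25 of them the groups did not overlap, with all values lower with PGC, and this held for 5.47% of all tested genes, while 42.7% had all values higher with PGC. The log2 change was under -1 in 13 of the 30, against 0.548% of all tested genes. Ldb3 and Kcnma1 passed the filter through the controls alone and so had to be lower. Of the other 28, 22 had an unadjusted p under 0.05 and 23 did not overlap. The median log2 change was -0.88 over the 30 genes and 0.26 over all tested genes. Because the genes were chosen with earlier results of these data known, these counts describe the list and do not test it. With 3 mice a group, the smallest two-sided p of an exact permutation test is 0.1.

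**Figure D1:**
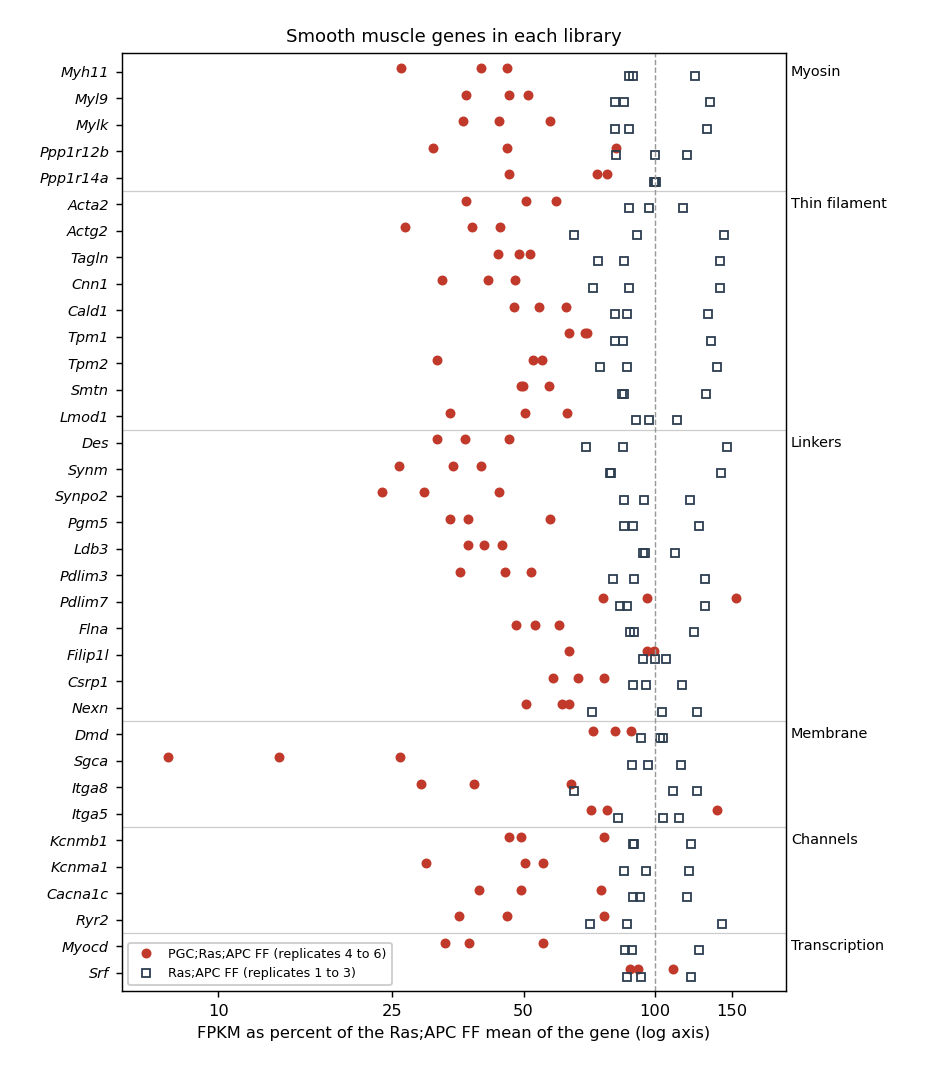
FPKM of the 35 genes in each library (points), as a percent of the mean of the gene in the 3 Ras;APC FF libraries, on a log axis, with genes grouped by role. The PGC;Ras;APC FF libraries sit left of the controls for most genes, while Ppp1r12b, Pdlim7, Filip1l, Itga5, Ryr2 and Srf overlap.

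The libraries of a group differed in their overall level of these genes. The mean log2 level of the 30 tested genes, relative to the control mean, was -0.63 in PGC;Ras;APC FF replicate 4, -0.85 in replicate 5 and -0.98 in replicate 6. It was -0.12, -0.20 and 0.32 in control replicates 1, 2 and 3. Replicate 4 was the highest PGC;Ras;APC FF library for 26 of 35 genes and replicate 6 the lowest for 22, while replicate 3 was the highest control for 31 of 35. The FPKM of the 35 genes summed to 2737, 2414 and 2112 in replicates 4, 5 and 6, against 4286.5, 3801 and 6420 in replicates 1, 2 and 3.

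Replicates 3 and 6 stood apart in other ways too. Replicate 3 had 6.09 FPKM of Ddx3y and 13.15 of Eif2s3y, both Y-linked, and 0 of Xist, whereas the others had 3.58 to 6.19 FPKM of Xist, at most 0.01 of Ddx3y and 0 of Eif2s3y; by these genes it reads as the 1 male. The digestive genes Pgc, Clps and Pla2g1b took 6.36% of summed FPKM in replicate 6 and 31.7% to 32.7% in replicates 4 and 5, against 34.9% to 48.1% in controls. Absolute depth is unknown, and 11641 to 12407 genes reached 1 FPKM in PGC;Ras;APC FF libraries and 11465 to 11545 in controls. Over all tested genes the median change was 0.26 (log2) as deposited and -0.0027 after median-of-ratios scaling. On that scale the smooth muscle median was -1.18, so its distance from the median of all genes was -1.14 as deposited and -1.18 after scaling. Leaving out replicate 3, the median was -0.72 over 28 tested genes, of which 26 were negative. Without replicate 6 it was -0.85, all 30 were negative, and 16 of 30 fell by limma (adjusted p under 0.05), against 0.914% of all tested genes called lower and 7.17% higher. Of these 16, 14 were among the 28 genes that did not pass the filter through the controls alone. The same 16 fell when the filter was kept over all 6 libraries, a choice made after seeing the data, against 0.961% of all tested genes lower and 8.11% higher. When replicate 5 was left out instead, Myh11, Pdlim3, Synm and Synpo2 fell, 4 of 30 against 0.386% of all tested genes. Leaving out replicate 4 gave 0 limma calls among them, against 0.0259% of all genes lower, with 24 of 30 lower at an unadjusted p under 0.05 (3.92% of all genes). Leaving out replicate 1, 2 or 3 gave 0 limma calls over all genes. At an unadjusted p under 0.05 these fits had 22, 21 and 20 of 28 lower, against 2.42%, 2.27% and 1.85% of all genes.

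Myosin and its regulators were lower across the set. Myh11, the smooth muscle myosin heavy chain and the motor of contraction (chromosome 16, 14194535 to 14291372, minus strand, GRCm38), had 70.2, 61.1 and 40.1 FPKM in replicates 4, 5 and 6, against 133, 136 and 189 FPKM in control replicates 1, 2 and 3. The highest PGC;Ras;APC FF library thus stayed well below the lowest control. The log2 change of Myh11 was -1.42 ± 0.24 (SE), with a limma adjusted p of 0.085, and -1.19 without replicate 6, where it passed (limma adjusted p = 0.0318). It also passed without replicate 5 (limma adjusted p = 0.0382). Without replicate 1, 2, 3 or 4 it did not, with limma adjusted p of 0.0975 to 0.246. Myl9, the regulatory light chain that the kinase phosphorylates (chromosome 2, 156775420 to 156781658, plus strand), had 257, 234 and 186 FPKM in replicates 4, 5 and 6, against 429, 408 and 674 in replicates 1, 2 and 3. Mylk, the kinase itself, averaged 26.6 ± 6.25 FPKM in PGC;Ras;APC FF and 58.0 ± 15.9 in controls (SD, n = 3 each). Both had groups that did not overlap, with log2 changes of -1.13 and -1.09 and a limma adjusted p of 0.085 each.

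The phosphatase side gave smaller differences. Ppp1r14a, which inhibits myosin phosphatase when phosphorylated, had 7.09, 7.49 and 4.46 FPKM in replicates 4, 5 and 6, against 9.68, 9.64 and 9.58 FPKM in replicates 1, 2 and 3. The controls were nearly level here, and the log2 change of -0.56 ± 0.18 was the smallest of the 5 myosin genes (limma adjusted p = 0.0971). Ppp1r12b, a targeting subunit of that phosphatase, had 1.87, 1.05 and 0.71 FPKM in PGC;Ras;APC FF and 1.87, 2.29 and 2.72 in controls, with replicate 4 level with replicate 1. The log2 change was -0.60, and -0.95 with a pseudocount of 0.1. The ratio of Ppp1r12b to Ppp1r12a, another targeting subunit, was 0.221, 0.137 and 0.0769 in replicates 4, 5 and 6, against 0.219, 0.228 and 0.263 in replicates 1, 2 and 3. The groups of this ratio overlapped through replicate 4 (two-sided exact permutation p = 0.2, and 0.3 adjusted over 3 ratios).

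All 9 thin filament genes were lower, with no overlap between the groups and a median log2 change of -1.0. Over all tested genes 5.47% were lower without overlap, and the median log2 change was 0.26. Actg2, the enteric smooth muscle actin (chromosome 6, 83512905 to 83536265, minus strand), had 323, 279 and 196 FPKM in replicates 4, 5 and 6, against 666, 477 and 1053 FPKM in replicates 1, 2 and 3. The controls differed among themselves by more FPKM than the PGC;Ras;APC FF libraries did, with replicate 3 the highest. For Actg2 the difference was -1.41 ± 0.32 on the log2 scale (limma adjusted p = 0.085) and -1.11 without replicate 3. Acta2, the actin typical of vascular smooth muscle (chromosome 19, 34241090 to 34255590, minus strand), had 343, 293 and 213 FPKM, against 560.2, 506 and 670.3 FPKM in controls. For Acta2 it was -1.05 ± 0.23, with a limma adjusted p of 0.085.

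The balance of the 2 actins was level in the PGC;Ras;APC FF libraries. The Actg2 to Acta2 ratio was 0.940, 0.954 and 0.919 in replicates 4, 5 and 6, against 1.19, 0.944 and 1.57 in replicates 1, 2 and 3. Control replicate 2 lay among the PGC;Ras;APC FF values, so the groups overlapped (two-sided exact permutation p = 0.2, and 0.3 adjusted over 3 ratios). With 3 libraries a group this p cannot go below 0.1, so the test could not have passed 0.05. These genes are close in sequence, and how reads that fit both were counted is not given in the sources used here.

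**Figure D2:**
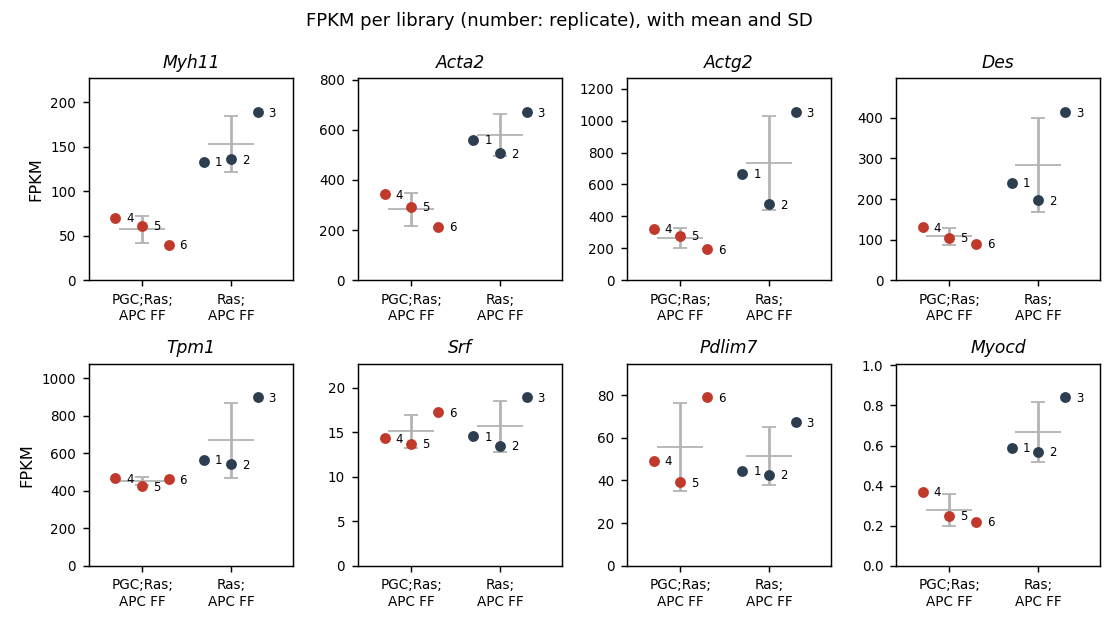
FPKM in each library for 8 of the genes (points, numbered by replicate), with the mean and SD of the 3 libraries of each group as horizontal lines and bars. Myh11, Acta2, Actg2, Des, Tpm1 and Myocd have every PGC;Ras;APC FF library below every control, and Srf and Pdlim7 overlap.

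The thin filament also holds tropomyosins. Tpm1, an actin-binding coiled coil made in many splice forms by muscle and other cells (chromosome 9, 67022590 to 67049406, minus strand), had 467, 425 and 463 FPKM in replicates 4, 5 and 6, against 566, 543 and 898 FPKM in replicates 1, 2 and 3. The groups were close outside replicate 3, and the log2 change of -0.53 ± 0.23 was the smallest among the thin filament genes (limma adjusted p = 0.146). Tpm2, the other main muscle tropomyosin, averaged 108 ± 29.8 FPKM in PGC;Ras;APC FF and 232 ± 78.5 in controls (log2 change -1.09). Gene-level values do not separate splice forms.

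The actin-associated proteins that mark differentiated smooth muscle were lower by similar amounts. Tagln (SM22, an actin cross-linker) averaged 279 ± 24.0 FPKM in PGC;Ras;APC FF and 580 ± 208 in controls (SD, n = 3 each), a log2 change of -1.0. Cnn1, calponin, averaged 85.2 ± 16.3 FPKM, against 210 ± 75.6 in controls (log2 change -1.25). Cald1, caldesmon, which like calponin binds actin and restrains myosin, averaged 28.2 ± 3.95 FPKM, against 51.5 ± 14.5 (log2 change -0.82). These 3 shared a limma adjusted p of 0.085, as did Smtn (smoothelin, 52.2% of the control mean) and Lmod1 (a leiomodin that seeds actin filaments, 49.2%). Without replicate 6, Acta2, Cnn1, Cald1, Smtn and Lmod1 fell, with limma adjusted p between 0.0341 and 0.0470, and Tpm1, Tpm2, Actg2 and Tagln did not pass. No thin filament gene passed when any other single library was left out.

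Genes that tie the filaments to dense bodies and the membrane held both the most negative and the most positive log2 change of the 30 tested genes. Synpo2, an actin-bundling protein of dense bodies and Z-discs (chromosome 3, 123076519 to 123236149, minus strand), had 6.09, 4.10 and 3.28 FPKM in replicates 4, 5 and 6, against 11.8, 13.1 and 16.7 FPKM in replicates 1, 2 and 3. It had the lowest limma p of the 30 tested genes, with a log2 change of -1.45 ± 0.21 and a limma adjusted p of 0.0787. Without replicate 6 the change was -1.29 (limma adjusted p = 0.0302), and without replicate 5 it was -1.42 (limma adjusted p = 0.0328). Without replicate 1, 2, 3 or 4 Synpo2 did not pass, with limma adjusted p of 0.0820 to 0.246. Synm, an intermediate filament protein which joins desmin filaments to the membrane, averaged 9.42 ± 1.98 FPKM in PGC;Ras;APC FF and 28.2 ± 10.2 in controls (log2 change -1.45).

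Des, desmin, the main intermediate filament of muscle (chromosome 1, 75360329 to 75368579, plus strand), had 131, 104 and 89.9 FPKM in replicates 4, 5 and 6, against 240.0, 197 and 414 FPKM in replicates 1, 2 and 3. The log2 change was -1.32 ± 0.29 (limma adjusted p = 0.085). Csrp1, a LIM protein of actin fibres and the most abundant gene of the linkers (chromosome 1, 135720061 to 135752232, plus strand), had 274, 239 and 209.8 FPKM, against 342, 319 and 414 FPKM in controls. It was at 67.3% of the control mean, a smaller difference than for desmin (log2 change -0.57 ± 0.18, limma adjusted p = 0.0954). Pgm5 (aciculin, which binds dystrophin), Pdlim3 (a PDZ-LIM protein of the Z-disc), Flna (filamin A, an actin cross-linker) and Nexn (nexilin) were at 42.9%, 44.4%, 53.9% and 58.5% of their control means, with no overlap. Ldb3, a Z-disc protein at 0.513 ± 0.0451 FPKM in PGC;Ras;APC FF and 1.26 ± 0.124 in controls, was tested only because its controls passed 1 FPKM. Its log2 change was -0.58, and -1.14 with a pseudocount of 0.1. Flna lies on the X chromosome, and without replicate 3 its log2 change was -0.71.

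A pair of linkers had overlapping groups. Pdlim7, a PDZ-LIM protein of actin fibres that is also made outside muscle (chromosome 13, 55495795 to 55513676, minus strand), had 49.3, 39.2 and 78.9 FPKM in replicates 4, 5 and 6, against 44.5, 42.8 and 67.2 FPKM in replicates 1, 2 and 3. Replicate 6 was the highest and replicate 5 the lowest of all 6, and the log2 change was 0.084 ± 0.28 (limma adjusted p = 0.831). Its sign depended on the scaling, at -0.22 after median-of-ratios scaling, and on replicate 6, at -0.19 without it. Filip1l, a filamin-interacting protein of stromal cells, had 27.4, 26.4 and 17.5 FPKM, against 25.8, 27.5 and 29.2 FPKM in controls. Only replicate 6 lay below the controls there (log2 change -0.23 ± 0.18, limma adjusted p = 0.371, and -0.030 without replicate 6).

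**Figure D3:**
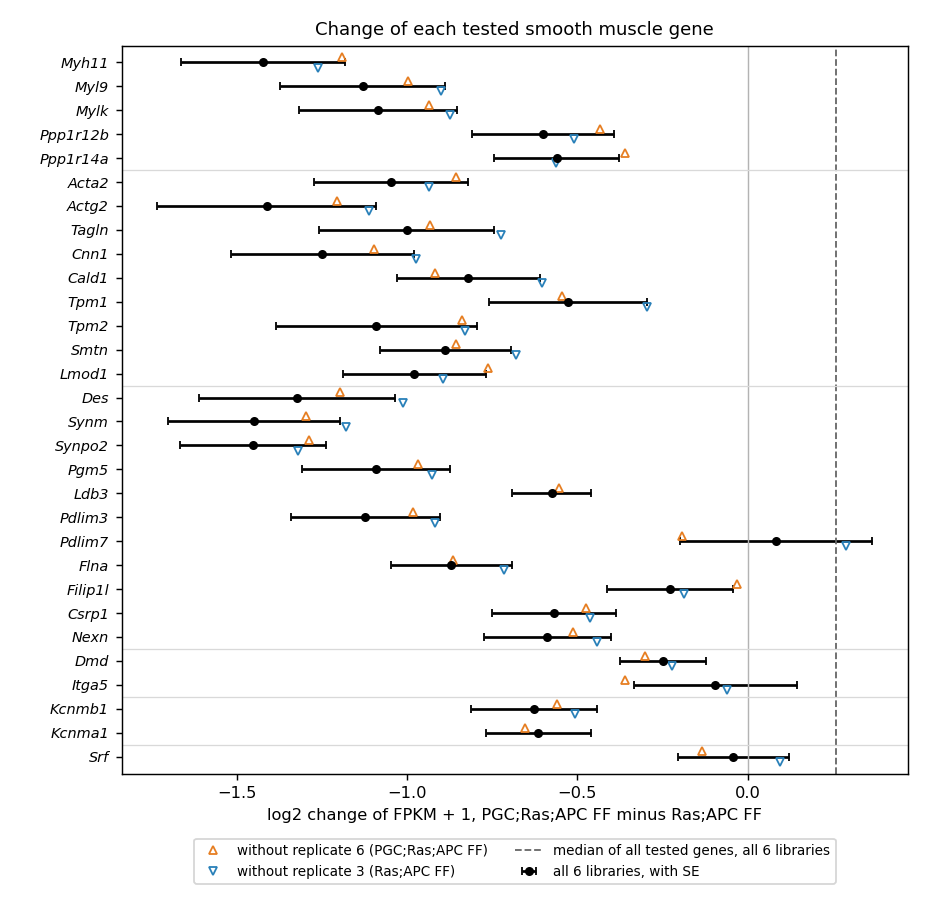
Log2 change of FPKM + 1, PGC;Ras;APC FF minus Ras;APC FF, for the 30 tested genes, with SE bars, and the same without replicate 6 (upward triangles) and without replicate 3 (downward triangles). The values run from -1.45 (Synpo2) to 0.084 (Pdlim7), against a median of 0.26 over all tested genes (dashed line).

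Of the membrane attachment genes, Sgca and Itga8 were below the filter, and Dmd and Itga5 were tested. Sgca, alpha-sarcoglycan, a muscle component of the dystrophin complex (chromosome 11, 94962791 to 94976327, minus strand), had 0.05, 0.17 and 0.09 FPKM in replicates 4, 5 and 6, against 0.63, 0.75 and 0.58 FPKM in replicates 1, 2 and 3. Its mean was 15.8% of the control mean, the lowest percentage of the 35 genes. It stayed below the filter, and in a fit with no filter on low values its limma adjusted p was 0.079. The integrin gene Itga8, expressed by smooth muscle and other mesenchymal cells, was also below the filter, at 0.423 ± 0.176 FPKM in PGC;Ras;APC FF and 0.963 ± 0.297 in controls.

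Dmd, dystrophin (chromosome X, 82948870 to 85206141, plus strand), had 3.27, 2.91 and 3.57 FPKM in replicates 4, 5 and 6, against 3.75, 4.16 and 4.22 FPKM in replicates 1, 2 and 3. The groups did not overlap, but the difference was small (log2 change -0.25 ± 0.13, limma adjusted p = 0.188). Itga5, a fibronectin receptor subunit (chromosome 15, 103344286 to 103366763, minus strand), had 5.84, 5.38 and 10.4 FPKM, against 8.54, 6.19 and 7.87 FPKM in controls. Replicates 4 and 5 were below the controls and replicate 6 above them, so the groups overlapped (log2 change -0.095 ± 0.24, limma adjusted p = 0.776).

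The ion channel genes were low in level and lower in PGC;Ras;APC FF. Kcnmb1, the accessory subunit that makes the smooth muscle BK potassium channel more sensitive to calcium (chromosome 11, 33963013 to 33973641, plus strand), had 3.39, 2.05 and 2.19 FPKM in replicates 4, 5 and 6, against 3.98, 3.96 and 5.37 FPKM in replicates 1, 2 and 3. Kcnma1, the pore of that channel (chromosome 14, 23289431 to 24014491, minus strand), had 0.95, 0.51 and 0.86 FPKM, against 1.45, 1.63 and 2.05 FPKM in controls. The groups did not overlap in either, with log2 changes of -0.63 ± 0.19 and -0.61 ± 0.15 and limma adjusted p of 0.0903 and 0.085. With a pseudocount of 0.1 the change of Kcnma1 was -1.08, and that of Kcnmb1 -0.80. The ratio of accessory to pore subunit was 3.57, 4.02 and 2.55 in replicates 4, 5 and 6, against 2.74, 2.43 and 2.62 in replicates 1, 2 and 3. Replicate 6 lay among the controls (two-sided exact permutation p = 0.3, and 0.3 adjusted over 3 ratios). Below the filter, Cacna1c, the L-type calcium channel, had 0.443 ± 0.150 FPKM in PGC;Ras;APC FF and 0.81 ± 0.131 in controls without overlap. Ryr2, an intracellular calcium release channel, had 0.07 to 0.15 FPKM, against 0.14 to 0.28 in controls, with overlap.

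The pair of transcription factors had very different levels. Myocd, myocardin, the SRF cofactor that drives the smooth muscle programme (chromosome 11, 65176561 to 65269989, minus strand), had 0.37, 0.25 and 0.22 FPKM in replicates 4, 5 and 6, against 0.59, 0.57 and 0.84 FPKM in replicates 1, 2 and 3. The groups did not overlap, and the mean was at 42.0% of the control mean, but all values were under 1 FPKM and the gene stayed below the filter (limma adjusted p = 0.137 with no filter on low values). Srf (chromosome 17, 46548329 to 46556175, minus strand) had 14.3, 13.7 and 17.3 FPKM, against 14.6, 13.5 and 18.9 FPKM in controls. The groups overlapped throughout (log2 change -0.042 ± 0.16, limma adjusted p = 0.856), and without replicate 3 the change was 0.094. Whether Myocd and Srf differ from each other in their change was not tested.

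Since many of these genes are known targets of SRF, their promoters were searched for the CArG box, which is CC, then 6 bases of A or T, then GG, and reads the same form on either strand. RefSeq promoter windows on GRCm38.p6, from 250 bases before to 50 after a start, matched 30 of the 35 symbols in 38 windows. Myh11, Actg2, Tagln, Myocd and Nexn had no window and were not searched, so nothing is said of boxes in them. The box was in a window of 5 of those 30 genes, or 16.7%, against 1.81% of all 27025 genes with a window. A match is only a description of these letters. All 5 genes with the box are shown. The groups of Srf and Filip1l overlap, and those of Myl9, Dmd and Ldb3 do not, where Ldb3 passed the filter through the controls alone. Boxes are in capitals, and each stretch lies before an annotated RefSeq start, 5′ to 3′ on the strand of the gene.
Srf, chr17:46556180-46556289, minus strand: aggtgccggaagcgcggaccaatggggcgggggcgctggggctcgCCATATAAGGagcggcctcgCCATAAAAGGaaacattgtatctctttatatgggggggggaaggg
Myl9, chr2:156775258-156775347, plus strand: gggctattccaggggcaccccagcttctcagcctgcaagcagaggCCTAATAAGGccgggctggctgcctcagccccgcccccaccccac
Ldb3, chr14:34588682-34588761, minus strand: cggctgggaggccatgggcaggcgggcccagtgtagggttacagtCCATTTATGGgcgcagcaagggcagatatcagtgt
Dmd, chrX:82948727-82948816, plus strand: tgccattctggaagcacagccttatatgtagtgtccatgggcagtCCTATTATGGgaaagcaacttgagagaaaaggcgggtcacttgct
Filip1l, chr16:57549135-57549224, plus strand: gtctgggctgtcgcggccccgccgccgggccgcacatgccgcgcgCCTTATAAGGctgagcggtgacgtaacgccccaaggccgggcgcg

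Srf itself carried 2 boxes, the first 82 to 73 and the second 62 to 53 bases before its start, and only 6 of all 32851 windows held 2 or more. The box lay 161 to 152 bases before the start in Myl9, 98 to 89 in Dmd and 62 to 53 in Filip1l. In Ldb3 it lay 35 to 26 bases before the start shown and 109 to 100 before another. Boxes with exactly 1 G or C among the 6 middle bases were in windows of 6 of the 30 genes, or 20.0%, against 9.69% of all genes. Among these was Acta2, shown because its promoter elements of this form have long been studied in smooth muscle, with 2 of them in capitals, 84 to 75 and 34 to 25 bases before the start.
Acta2, chr19:34255374-34255502, minus strand: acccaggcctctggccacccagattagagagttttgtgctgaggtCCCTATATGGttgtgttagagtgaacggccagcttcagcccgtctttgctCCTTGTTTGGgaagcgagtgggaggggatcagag

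Other genes of contraction, taken from 4 fixed lists, gave a mixed picture. Of 31 tested contractile and actin-binding genes 0 were called by limma over all genes. At an unadjusted p under 0.05, 9 were lower and 6 higher (backgrounds 3.63% lower and 31.8% higher), and the median log2 change was 0.059. That median turned to -0.25 after median-of-ratios scaling, with the median of all genes near 0. Without replicate 6, Flnc (filamin C of muscle), Tns1 (tensin of focal adhesions) and Hspb7 (a muscle chaperone) fell, while Tpm3 (a tropomyosin of many cell types) was among those that rose. Flnc averaged 3.17 ± 0.665 FPKM in PGC;Ras;APC FF and 7.38 ± 1.37 in controls. The most abundant of the list were the cytoplasmic actins Actg1 and Actb and the light chain Myl6. These 3 averaged 2173 ± 358, 1600 ± 637 and 922 ± 132 FPKM in PGC;Ras;APC FF, and 1647 ± 271, 1015 ± 316 and 906 ± 280 in controls, and did not pass.

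Membrane and junction genes (19 tested, median log2 change -0.17) and calcium and signalling genes (18 tested, median -0.44) had 0 calls with all 6 libraries. At an unadjusted limma p under 0.05, 6 and 9 of them were lower and 1 and 0 higher, against 3.63% lower and 31.8% higher over all tested genes. Pln, phospholamban, the brake on the calcium pump, had 3.55, 3.00 and 2.26 FPKM in replicates 4, 5 and 6, against 8.18, 8.37 and 14.3 FPKM in replicates 1, 2 and 3 (log2 change -1.49, limma adjusted p = 0.085). The pump itself, Atp2a2, which other cells also make, had 62.3 ± 8.52 FPKM in PGC;Ras;APC FF and 49.96 ± 4.05 in controls. Without replicate 6, Pln, Casq2 (a calcium store protein), Mrvi1 (a target of cGMP kinase) and Rgs5 (a regulator of G protein signalling in mural cells) fell, as did Cav1 (caveolin) and Jph2 (junctophilin), among others. The abundant Itgb1, Ilk and Dag1, of integrin and dystroglycan adhesion, averaged 74.8 ± 10.9, 58.6 ± 4.18 and 50.4 ± 1.68 FPKM in PGC;Ras;APC FF. In controls they averaged 61.1 ± 1.41, 55.4 ± 4.04 and 45.4 ± 5.50 FPKM, without passing. The calcium channel subunit Cacnb3 had 15.2 ± 1.75 FPKM with PGC and 12.7 ± 0.150 in controls.

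Among 17 tested transcription factor and growth factor genes 0 were called, with 1 lower and 4 higher at an unadjusted limma p under 0.05 and a median of 0.19. Over all tested genes 3.63% were lower and 31.8% higher, with a median of 0.26. The SRF cofactors Mkl1 and Mkl2 had 15.9 ± 1.39 and 3.07 ± 0.856 FPKM in PGC;Ras;APC FF, and 13.5 ± 1.57 and 2.53 ± 0.534 in controls, with limma adjusted p of 0.263 and 0.448. Klf4, which represses smooth muscle genes in vessels and is abundant in gastric epithelium, averaged 144 ± 23.7 FPKM in PGC;Ras;APC FF and 144 ± 25.9 in controls. Klf5 was at 45.2 ± 14.5 FPKM with PGC and 27.7 ± 8.72 in controls, and Gata6 at 33.4 ± 5.90 FPKM with PGC and 35.02 ± 3.35 in controls. Tgfb1, a growth factor that induces contractile genes, had 15.2, 12.2 and 30.3 FPKM in replicates 4, 5 and 6, against 8.24, 6.88 and 7.71 FPKM in replicates 1, 2 and 3. It rose without replicate 6 (log2 change 0.77, limma adjusted p = 0.0325), and with all libraries the change was 1.13 (limma adjusted p = 0.085).

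Ratios of a contractile gene to another gene of its family were also taken within each library. These 7 pairs were chosen after their values were seen and do not stand for other pairs, such as Ppp1r12b to Ppp1r12a above, whose groups overlap. A ratio within a library does not depend on scaling by a total. The Myh11 to Myh9 ratio (smooth muscle to nonmuscle myosin) was 1.73, 1.49 and 0.609 in replicates 4, 5 and 6, against 4.42, 3.99 and 6.58 in replicates 1, 2 and 3. The Acta2 to Actb ratio was 0.287, 0.231 and 0.0913, against 0.670, 0.610 and 0.486 in controls. The Tagln to Tagln2 ratio was 0.395, 0.376 and 0.229, against 1.09, 0.820 and 1.26. In all 7 pairs the 2 groups did not overlap, and the mean ratios were 25.5% (Myh11 to Myh9) to 40.7% (Tpm1 to Tpm3) of the control means. By themselves, Myh11 and Tpm1 were at 37.4% and 67.5% of their control means. Of the genes divided by, Myh9, Tpm3 and Tagln2 were above all controls, as were 42.7% of all tested genes. Actb, Actg1, Tpm4 and Cnn2 overlapped. A ratio alone shows unequal change of the 2 genes and not which of them changed. No share over other pairs was taken, and no test is given for pairs chosen in this way.

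**Figure D4:**
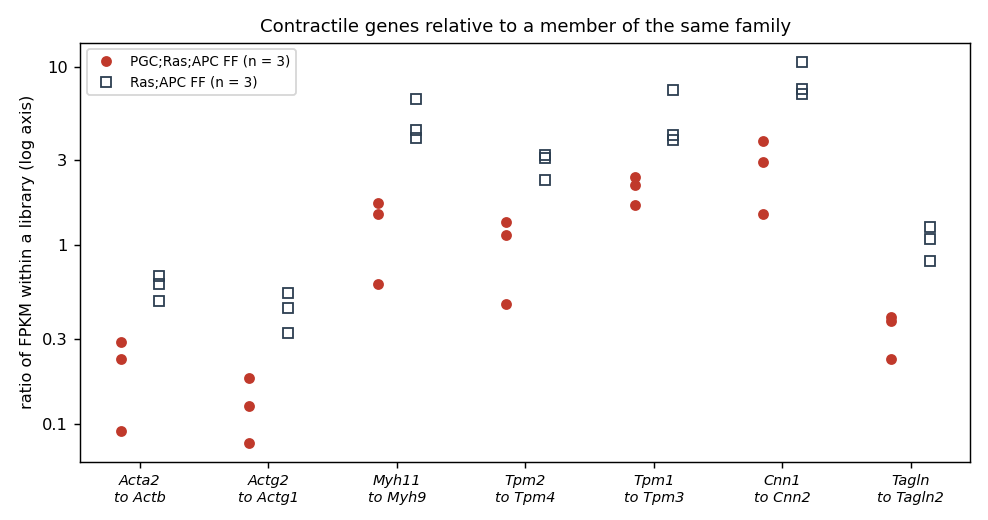
Ratio of the FPKM of a contractile gene to that of another gene of its family within each library (points), on a log axis, for 7 pairs. For each pair the 3 PGC;Ras;APC FF libraries lie below the 3 Ras;APC FF libraries.

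Markers of the other cells of the stomach wall were read in the same libraries. Summed over 5 endothelial genes the level was 25.1 to 29.4 FPKM in PGC;Ras;APC FF and 24.6 to 28.9 in controls, and 0 of 5 had groups that did not overlap. The 6 fibroblast genes summed to 257 to 397 FPKM, against 250.3 to 262 in controls, with 3 of 6 above all controls, where 42.7% of all tested genes were. The 6 pericyte genes summed to 39.1 to 47.9 FPKM, against 59.9 to 68.6 in controls. Only 2 of 6 were below all controls, where 5.47% of all tested genes were. The other 4 overlapped, and the median log2 change of the pericyte genes was -0.15. Rgs5 made the largest part (25.4 ± 4.15 and 47.7 ± 3.69 FPKM in PGC;Ras;APC FF and controls). In the interstitial cells of Cajal, the pacemakers of gut muscle, Kit had 9.89, 9.79 and 5.03 FPKM in replicates 4, 5 and 6, against 10.6, 12.3 and 10.4 FPKM in replicates 1, 2 and 3. Ano1 of the same cells, also made by epithelia, lay the other way, at 16.6 ± 3.02 FPKM with PGC and 10.3 ± 2.19 in controls.

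Nerve, fat and epithelial markers were read in the same way. The 7 enteric neuron genes summed to 10.2 to 16.6 FPKM in PGC;Ras;APC FF and 16.4 to 23.7 in controls. Of the 3 that passed the filter 1 was below all controls, against 5.47% of all tested genes, and 4 of 7 were with those under the filter. The 5 glial genes summed to 2.30 to 8.31, against 4.63 to 5.45 FPKM in controls, so the sums overlapped, and 3 of 5 genes were below all controls, 1 of them past the filter. The 5 adipocyte genes summed to 22.2 to 60.5, against 77.1 to 111 FPKM, with 4 of 5 below all controls, 2 of them past the filter, and Adipoq and Cfd past the limma threshold over all genes. The 3 parietal cell genes summed to 1709 to 8587, against 7691 to 9596 FPKM in controls. These sums overlapped, with 1 of the 3 genes (Atp4b) below all controls and a median log2 change of -1.09. The 3 surface cell genes summed to 74763 to 79784, against 49623 to 94357 FPKM in controls, and these sums overlapped too. The 2 chief cell genes found summed to 16106 to 87515, against 140360 to 194240 FPKM in controls, without overlap. Of these 2, Pgc was below all controls and Pga5 above them. Of the lists, none had a gene at 0 in every library, and Adipoq was at 0 in replicate 6. The part of these differences in the smooth muscle values was not tested.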

How the data were processed

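The deposited table holds FPKM made by the authors, to 2 decimals. The submitters' processing notes name STAR, featureCounts and mm10. Their versions, the gene annotation, strandedness and how FPKM were reached are not given in the labels or the table. RNA came from the stomach corpus with a DNase step and was sequenced at BGI, per the labels' protocols. FPKM are not counts, so no count model was used. Absolute depth is unknown, so no counting interval is given.

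Genes with at least 1 FPKM in at least 3 of 6 libraries were tested as log2(FPKM + 1) with limma (version 3.58.1, R 4.3.3; moderated variances with a trend, genotype as the 1 term, two-sided). Adjustment was by Benjamini-Hochberg, across the 11857 genes. The log2(FPKM + 1) scale understates changes of low genes. For the 5 genes below the filter, the p of a fit with no filter is given. Ratios were tested by exact permutation of the libraries. The smallest two-sided p is 0.1, so no ratio could have passed 0.05, and these p do not decide whether a ratio differed. Alternatives were another pseudocount, no filter, 3 other scalings and leaving out each library.

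The genes and lists were chosen with earlier results of these data known. Values per library are given by a rule: genes past the threshold, and for each role the 2 most abundant genes and those of lowest and highest log2 change, and genes that went against the median; others were added after their values were seen. Coordinates are from GENCODE M21 (GRCm38) by symbol, and promoters from RefSeq (GRCm38.p6). The libraries are separate mice, per the labels, and no batch is given. Some items are not reported here.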

Additional observations from a re-analysis of the deposited data

How the results depend on the processing

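Over all genes 13 were higher and 5 lower; 29 were higher with a pseudocount of 0.1 and 3 without the filter, and 10, 13 and 10 were lower after median-of-ratios scaling, quantile normalization and a total without the 50 most abundant genes. Leaving out 1 library gave 0 to 962 higher and 0 to 114 lower (the upper ends without replicate 6 and with the filter over all 6 libraries, chosen after seeing the data), and 0 to 16 smooth muscle genes lower. The smooth muscle median was -0.63 without the filter, -1.18, -1.23 and -1.24 under the 3 scalings in that order, and -1.02 to -0.72 with 1 library left out. Under the same scalings the contractile list median was -0.25, -0.31 and -0.31, the membrane list -0.42, -0.40 and -0.47, and the transcription list -0.051, -0.072 and -0.11. The calcium and signalling list had -0.65, -0.67 and -0.69, with -0.61 at a pseudocount of 0.1 and -0.25 without the filter. With 1 library left out the ranges were -0.071 to 0.17 (contractile), -0.26 to -0.091 (membrane), -0.56 to -0.34 (signalling) and 0.072 to 0.19 (transcription). Signs turned for Pdlim7 (-0.22, -0.28 and -0.28 under the scalings, -0.19 to 0.30 with 1 library left out), Itga5 (-0.36 to 0.062) and Srf (-0.14 to 0.094), and for the Kcnmb1 to Kcnma1 ratio with 1 added to each FPKM (-0.013). No other tested smooth muscle gene changed sign under any alternative run. The cause was not tested. No paired analysis was possible because the groups share no replicate numbers. Unknown depth limits what can be said of Sgca, Myocd, Cacna1c, Ryr2 and Itga8, most of whose values are under 1 FPKM.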

Other observations

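Markers of other muscle types and of the outer lining were also read. The skeletal muscle genes found (Ckm, Acta1, Tnnt3, Myh2 and Myh1) summed to 3.52 to 6.82 FPKM in PGC;Ras;APC FF and 11.2 to 20.5 in controls. Most of this was Ckm, muscle creatine kinase, at 5.02, 4.58 and 2.81 FPKM in replicates 4, 5 and 6, against 9.07, 9.39 and 17.4 FPKM in replicates 1, 2 and 3. The fast myosin genes Myh1 and Myh2 were at 0.10 FPKM or less in every library. The 3 cardiac genes found summed to 0.81 to 3.65 FPKM, against 0.63 to 2.04 in controls. The 4 mesothelial genes summed to 3.43 to 8.46 FPKM, against 0.51 to 4.22 in controls, and Msln, mesothelin, had 3.17, 1.15 and 5.80 FPKM in replicates 4, 5 and 6, against 0.22, 0.41 and 1.08 FPKM in replicates 1, 2 and 3 (log2 change 1.36, limma adjusted p = 0.0901).

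Barx1, which marks stomach mesenchyme, had 30.6, 27.0 and 25.6 FPKM in PGC;Ras;APC FF, against 33.9, 30.6 and 51.9 FPKM in controls (log2 change -0.44, limma adjusted p = 0.163). Hand2 had 9.75, 6.87 and 7.62 FPKM, against 11.8, 10.5 and 18.4 FPKM (log2 change -0.65, limma adjusted p = 0.101). In both, the groups did not overlap (for Barx1, replicates 4 and 2 were nearly level) and replicate 3 was the highest. The muscarinic receptor Chrm2, which carries vagal signals to gut muscle, had 2.43, 0.67 and 0.92 FPKM, against 2.87, 4.23 and 4.32 FPKM in controls (log2 change -1.10, limma adjusted p = 0.085), and the tachykinin receptor Tacr2 averaged 1.33 ± 0.607 FPKM, against 3.76 ± 1.41 in controls (SD, n = 3 each).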
